A study of Oryctolagus cuniculus with 9 samples.

Results

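Small leucine-rich proteoglycans and the large proteoglycan versican were followed at 8 loci of a table of 19511 loci in primary rabbit parathyroid cells. The loci were chosen by gene name as DCN (decorin), BGN (biglycan), ASPN (asporin), LUM;KERA (lumican joined with keratocan), FMOD (fibromodulin), PRELP (prolargin), OGN (osteoglycin, also called mimecan) and VCAN (versican), and each name had its row of highest mean used. RNA was sequenced in 9 libraries, 3 from each of 3 groups. Control cells were untreated and are labelled as day 0. Reoxygenated cells (H/R in the plots) had 6 h of hypoxia followed by 6 h of reoxygenation, which models ischaemia and reperfusion in culture. Pretreated cells (GA+H/R in the plots) had 1200 µM gallic acid, an antioxidant phenolic compound of plants, for 24 h and then the same hypoxia and reoxygenation. All cells are labelled wild type, no strain or age of the animals is used here, and the labels do not say whether libraries of a group came from separate animals or cultures, so p-values measure the spread between libraries, which may be technical. Whether reoxygenated cells spent the pretreatment time in culture without gallic acid is not given in the labels, so time in culture cannot be told apart from treatment.

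Small leucine-rich proteoglycans are secreted proteins with a solenoid of leucine-rich repeats, most of which carry chondroitin, dermatan or keratan sulfate chains. Many of them bind fibrillar collagen and set the width and spacing of its fibrils, and several bind TGF-beta or signal through cell-surface receptors. Versican, a chondroitin sulfate proteoglycan of the hyalectan family, binds hyaluronan and fills the loose matrix around cells. In most organs these proteins are made mainly by fibroblasts and other cells of the connective tissue, not by glandular epithelium.

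Expression is in FPKM (fragments counted per transcript length and per library size), but the deposited values did not sum to like totals. They summed to 1648012 to 1696488 in control, 730117 to 752065 in reoxygenated and 467499 to 516231 in pretreated cells, and the median locus was lower, with a shift of -1.25 (log2), in reoxygenated cells than in control and lower, with a shift of -0.50, in pretreated cells than in reoxygenated cells. Each library was therefore divided by its median ratio to the mean library, and levels below are FPKM relative to the median locus unless the deposited scale is named. Read depth is unknown, so no counting interval can be given. Control library 1 stood apart from the other control libraries, and its DCN, FMOD and VCAN levels were lower than their mean by 3.53, 3.54 and 2.59 times, so results are also given without it. PTH, which encodes parathyroid hormone, was at 0.0663 ± 0.00973 in control, 0.0358 ± 0.0184 in reoxygenated cells and 0.0407 ± 0.0554 in pretreated cells (SD, n = 3), CHGA and KRT8 had group means of at most 0.398 and 0.00925, and CASR and GCM2 were not analysed here. The fibroblast genes COL1A2 and COL3A1 had control means of 61185 and 22086, so defining markers of the labelled cell type were near 0 while fibroblast collagens were high. Not all fibroblast markers were high. Of 13 fibroblast symbols listed, 8 reached the level needed for testing, and PDGFRA, S100A4, FBLN1, PI16 and DPT were absent or below it. Of 15 parathyroid symbols listed, 3 reached it. In bulk RNA, fewer cells of a type and less RNA per cell cannot be told apart.

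After hypoxia and reoxygenation, transcripts of LUM;KERA, ASPN, VCAN and DCN fell relative to the median locus, and no member was called higher. With gallic acid before the same injury, PRELP and ASPN fell against reoxygenated cells and BGN rose slightly. Against control, pretreated cells were lower in 7 members and higher in BGN. Calls are at an adjusted p under 0.05 in a limma fit to log2(level + 1), with Benjamini-Hochberg adjustment across the 10956 loci that were tested, and all 8 members passed the filter on low values.

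For reoxygenated cells against control, 4 of 8 members were called lower where 28.4% of all loci were, and 0 were called higher where 29.2% were. The median change of the 8 was -1.06 (log2) beside 0.00 for all loci. All 3 reoxygenated libraries lay below all 3 controls for 5 members, DCN, LUM;KERA, ASPN, OGN and VCAN, an order that 33% of loci showed. Without control 1, 5 members were called lower (FMOD in addition) and 1 higher (BGN), beside 28.5% and 30.9% of 10592 loci.

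For pretreated cells against reoxygenated cells, 2 members were called lower beside 15.2% of all loci and 1 higher beside 18.7%. The members' median was -0.57 and that of all loci 0.00. The 2 groups did not overlap for 6 members, with 5 lower in pretreated cells (LUM;KERA, ASPN, VCAN, FMOD and PRELP), as for 24.5% of loci, and 1 higher (BGN), as for 27.4%. In the fit without control 1, 5 members were called lower and 1 higher, beside 20.2% and 22.8% of loci. The members called fell from 3 to 1 when any single reoxygenated library or pretreated library 1 was left out, while the loci called went from 3712 to 2770, 2709 and 2764 without reoxygenated library 1, 2 or 3 and to 3235 without pretreated library 1.

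For pretreated cells against control, 7 members were called lower beside 35.5% of all loci and 1 higher beside 33.7%. The members' median was -1.43 and that of all loci -0.05. Ranges did not overlap for 6 lower members, an order shown by 36.5% of loci, and for BGN as the higher one, shown by 35%. FMOD overlapped through control library 1. Without control 1 the counts were the same, 7 lower and 1 higher, beside 35% and 34.7% of loci. Without control 2 the members called numbered 5, beside 6803 of 10665 loci. The 3 comparisons share libraries, so their counts are not independent of each other.

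On the deposited scale all 8 members had every reoxygenated and pretreated library below every control library, and every pretreated library below every reoxygenated library. There 8 were called lower in reoxygenated cells against control, 7 in pretreated cells against reoxygenated cells and 8 in pretreated cells against control, but so were 86%, 64.3% and 90.1% of the 10996 loci tested. BGN changed sign between the scales, and so did PRELP in reoxygenated cells against control. The authors' deposited table holds a test across the 3 groups that marked all 8 members as significant, with q-values from 9.3e-206 for ASPN to 6.07e-11 for OGN, among 10917 loci marked of 19511.

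**Figure D1:**
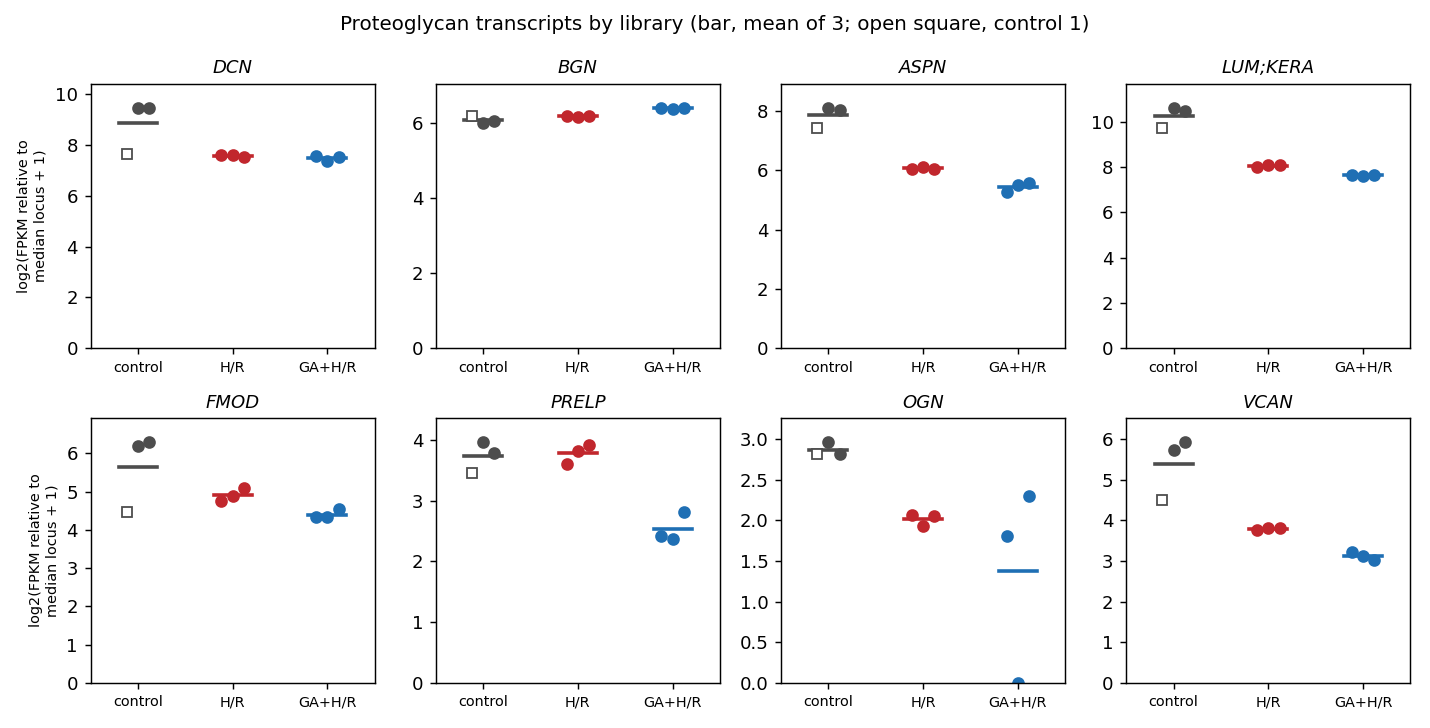
Levels of the 8 loci by library, as log2(FPKM relative to the median locus + 1), with a panel per locus and the 3 groups on the x axis; dots are libraries, bars are means of 3 and the open square is control library 1. OGN is spread most in GA+H/R, with libraries at 2.5, 0 and 3.93, and control 1 lies below the other controls for DCN (199 beside a mean of 701) and FMOD (21.0 beside 74.2).

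Decorin, biglycan and asporin form the first class of the family, which has a pair of chains on biglycan, one on decorin and none on asporin. Decorin binds collagen I and TGF-beta and restrains the EGF receptor. DCN was at 199, 694 and 708 in control libraries 1, 2 and 3, at 194, 196 and 183 in the reoxygenated libraries and at 188, 164 and 182 in the pretreated libraries. Controls 2 and 3 were far above all other libraries, while control 1 lay just above the reoxygenated range. Group means were 534 ± 290.3 in control, 191 ± 6.87 in reoxygenated cells and 178 ± 12.5 in pretreated cells (SD, n = 3). DCN changed in reoxygenated cells against control by -1.27 (log2; SE 0.41, adjusted p = 0.0264). That call was lost without control 2, control 3 or any reoxygenated library (adjusted p = 0.0983, 0.095 and 0.0602 to 0.0669), and without control 1 the change was -1.86 (adjusted p = 7.22e-08). Between pretreated and reoxygenated cells the ranges overlapped and the difference was -0.10 ± 0.41 (SE; adjusted p = 0.867). Against control, the change in pretreated cells was -1.37 (adjusted p = 0.0154), a call that was lost without control 2 or 3 (adjusted p = 0.0588 and 0.0575) and without control 1 the change was -1.96. Deposited DCN values were 390.4 to 1259 in control, 123 to 132 in reoxygenated cells and 69.5 to 79.1 in pretreated cells.

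Biglycan, which binds collagen and, as a soluble fragment, acts on Toll-like receptors of macrophages, was the member called higher in pretreated cells. BGN was at 71.7, 63 and 65.2 in control libraries 1, 2 and 3, at 71.2, 71 and 71.6 in the reoxygenated libraries and at 82.6, 82 and 83.8 in the pretreated libraries. Every pretreated library was above every reoxygenated and control library, and the reoxygenated and control ranges overlapped. Group means were 66.6 ± 4.51 in control, 71.3 ± 0.297 in reoxygenated cells and 82.8 ± 0.943 in pretreated cells. The difference between reoxygenated cells and control was 0.10 ± 0.06 (adjusted p = 0.22), and without control 1 it was 0.17 and called (adjusted p = 0.0198). With quantile normalization it was 0.18 and called (adjusted p = 0.0298), and with equal totals it was -0.19 and not called (adjusted p = 0.137). BGN rose in pretreated cells against reoxygenated cells by 0.21 (SE 0.06, adjusted p = 0.031), a call lost when any single reoxygenated or pretreated library was left out (adjusted p = 0.0575 to 0.0821) and with libraries set to equal totals (0.36). It rose in pretreated cells against control by 0.31 (adjusted p = 0.00203). With equal totals that difference was -0.06 (adjusted p = 0.622). On the deposited scale BGN was lower in each comparison, with changes of -1.34, -0.44 and -1.78, with values of 114 to 141 in control, 47.7 to 48.1 in reoxygenated cells and 34.8 to 35.5 in pretreated cells, so its direction depends on the scale.

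Asporin binds collagen and TGF-beta and, unlike decorin and biglycan, has a run of aspartate residues in place of a glycosaminoglycan attachment region. ASPN was at 173, 277 and 263 in control libraries 1, 2 and 3, at 65.1, 68.5 and 65.6 in the reoxygenated libraries and at 37.3, 44.4 and 46.9 in the pretreated libraries. The groups were fully separated, highest in control and lowest in pretreated cells. Means were 238 ± 56.6 in control, 66.4 ± 1.8 in reoxygenated cells and 42.9 ± 4.97 in pretreated cells. ASPN fell in reoxygenated cells against control (-1.79 ± 0.17 SE, adjusted p = 2.69e-05), and -1.99 was found without control 1. It fell again in pretreated cells against reoxygenated cells (-0.63 ± 0.17 SE, adjusted p = 0.0197), though adjusted p was 0.0519 to 0.0629 without any 1 reoxygenated library or pretreated library 1. The change in pretreated cells against control was -2.42 (adjusted p = 2.09e-06). In deposited FPKM ASPN was at 339 to 502 in control, 43.6 to 45.9 in reoxygenated cells and 15.7 to 19.8 in pretreated cells.

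The second class, keratan sulfate carriers and their relatives, includes lumican, keratocan, fibromodulin and prolargin. Lumican limits fibril width in skin, tendon and cornea, and keratocan is best known from the cornea. The table joins them in a single locus, so their transcripts cannot be told apart. LUM;KERA was at 839.8, 1570.1 and 1426 in control libraries 1, 2 and 3, at 256, 271 and 271 in the reoxygenated libraries and at 197, 196 and 199 in the pretreated libraries. It was the highest of the 8 loci in every library, and the 3 groups were fully separated. Means were 1279 ± 387 in control, 266 ± 8.54 in reoxygenated cells and 197 ± 1.55 in pretreated cells. LUM;KERA fell in reoxygenated cells against control (-2.21 in log2, SE 0.19, adjusted p = 1.89e-05), the largest fall of the 8 in that comparison, and without control 1 the change was -2.47. Pretreated cells differed from reoxygenated cells by -0.43 ± 0.19 (SE, adjusted p = 0.122), and that difference was called without control 1 (adjusted p = 1.15e-04). It was also called with equal totals (adjusted p = 0.0382), quantile normalization (0.0238), only the groups compared (1.59e-04) and the deposited scale (4.78e-04). Against control, the change in pretreated cells was -2.64 (adjusted p = 3.16e-06). The deposited range was 1649.9 to 2845 in control, 171 to 182 in reoxygenated cells and 83.1 to 84.2 in pretreated cells.

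Fibromodulin binds collagen I at a site shared with lumican and carries keratan sulfate chains. FMOD was at 21, 71.5 and 76.9 in control libraries 1, 2 and 3, at 25.8, 28.5 and 33 in the reoxygenated libraries and at 19, 19.3 and 22.1 in the pretreated libraries. Controls 2 and 3 were above all other libraries, and control 1 lay below every reoxygenated library and within the pretreated range. Group means were 56.5 ± 30.9 in control, 29.1 ± 3.6 in reoxygenated cells and 20.2 ± 1.72 in pretreated cells. The reoxygenated to control difference was -0.73 ± 0.41 (SE, adjusted p = 0.158) with control 1 and -1.31 (adjusted p = 2.76e-05) without it. With control 1 it was called with equal totals (adjusted p = 0.0359) and on the deposited scale (4.48e-04). Pretreated libraries were all below reoxygenated libraries, with a difference of -0.51 ± 0.41 (SE, adjusted p = 0.374) that was called without control 1 (adjusted p = 0.00522). That difference was also called with only the groups compared (adjusted p = 0.0135) and on the deposited scale (0.03). FMOD fell in pretreated cells against control (-1.24, adjusted p = 0.024), but not without control 2, control 3, pretreated library 1 or pretreated library 2 (adjusted p = 0.0589 to 0.088), and the change was -1.82 without control 1. Deposited FMOD was at 41.2 to 136 in control, 17.3 to 22.1 in reoxygenated cells and 8.02 to 9.37 in pretreated cells.

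Prolargin, which lacks glycosaminoglycan chains and anchors basement membrane perlecan to collagen, is encoded next to FMOD. PRELP was at 9.95, 14.6 and 12.8 in control libraries 1, 2 and 3, at 11.2, 13.2 and 14.1 in the reoxygenated libraries and at 4.33, 4.16 and 6.04 in the pretreated libraries. Reoxygenated and control libraries overlapped, and all pretreated libraries lay below both. Means were 12.5 ± 2.34 in control, 12.8 ± 1.49 in reoxygenated cells and 4.84 ± 1.04 in pretreated cells. The reoxygenated to control difference was 0.05 ± 0.17 (SE; adjusted p = 0.819), and -0.08 without control 1. PRELP fell in pretreated cells against reoxygenated cells by 1.25 (SE 0.17, adjusted p = 8.10e-04), the largest called change of the 8 in that comparison, and it fell in pretreated cells against control by 1.20 (adjusted p = 2.07e-04). Neither call was lost in any alternative run, and without control 1 the changes were -1.24 and -1.31. On the deposited scale, where PRELP was at 19.5 to 26.4 in control, 7.51 to 9.49 in reoxygenated cells and 1.77 to 2.55 in pretreated cells, the reoxygenated to control change was -1.31.

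Osteoglycin, of the third class, carries keratan sulfate in the cornea and bears on collagen fibril size and bone formation. OGN was at 6.03, 6.76 and 6.01 in control libraries 1, 2 and 3, at 3.17, 2.81 and 3.13 in the reoxygenated libraries and at 2.5, 0 and 3.93 in the pretreated libraries. Control libraries were above all others, and pretreated library 2 was listed at 0 while pretreated library 3 exceeded every reoxygenated library. It was the lowest of the 8 loci in each group by mean, at 6.27 ± 0.428 in control, 3.03 ± 0.198 in reoxygenated cells and 2.14 ± 1.99 in pretreated cells. The reoxygenated to control difference was -0.85 ± 0.48 (SE, adjusted p = 0.161), with a spread shared with the scattered pretreated libraries, and it was called when pretreated library 2 was left out (adjusted p = 0.00125). It was also called with only the groups compared (adjusted p = 3.50e-04), equal totals (0.0471) and the deposited scale (1.07e-04). Pretreated cells differed from reoxygenated cells by -0.64 ± 0.48 (SE; adjusted p = 0.334), and by 0.05 without pretreated library 2 and -1.14 without pretreated library 3. OGN fell in pretreated cells against control (-1.49, adjusted p = 0.0211), a call lost without control 2 (adjusted p = 0.052) and with 0.1 or 0.01 added in place of 1 (adjusted p = 0.0682 and 0.11), and the change was -0.81 without pretreated library 2. As deposited, OGN was at 10.6 to 12.2 in control, 1.88 to 2.12 in reoxygenated cells and 0 to 1.66 in pretreated cells.

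Versican is the only hyalectan among the 8. VCAN was at 21.6, 52.4 and 59.3 in control libraries 1, 2 and 3, at 12.6, 12.9 and 13 in the reoxygenated libraries and at 8.36, 7.64 and 7.16 in the pretreated libraries. Its 3 groups were fully separated, and the reoxygenated libraries agreed closely with each other. Means were 44.5 ± 20.1 in control, 12.8 ± 0.24 in reoxygenated cells and 7.72 ± 0.60 in pretreated cells. VCAN fell in reoxygenated cells against control (-1.59 ± 0.31 SE, adjusted p = 0.00216), with a change of -2.01 without control 1. Pretreated cells against reoxygenated cells gave -0.67 ± 0.31 (SE, adjusted p = 0.129), called without control 1 (adjusted p = 5.16e-04). That difference was also called with only the groups compared (adjusted p = 0.00184) and on the deposited scale (0.00563). Against control, the change in pretreated cells was -2.26 (adjusted p = 1.75e-04). Deposited values were 42.5 to 105 in control, 8.41 to 8.74 in reoxygenated cells and 3.03 to 3.52 in pretreated cells, and the table's VCAN row joins 5 assembled transcripts, so splice forms were not separated.

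**Figure D2:**
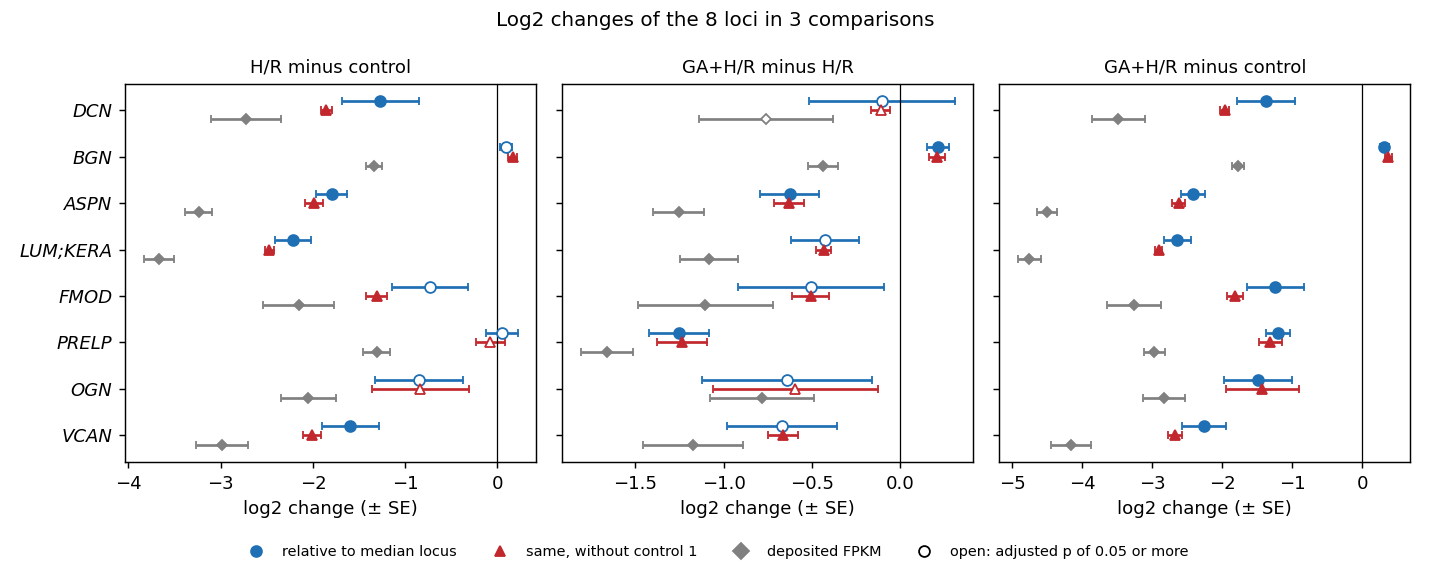
Log2 changes of the 8 loci, with SE, in the 3 comparisons (a panel each), relative to the median locus with and without control 1 and on the deposited scale; filled symbols are called and the vertical line marks no change. BGN lies to the right of 0 relative to the median locus and to the left on the deposited scale, and LUM;KERA, ASPN and VCAN are the 3 lowest in both comparisons with control on every scale shown.

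Per-length levels can be ranked within a library without any scaling. In control the order of the group means was LUM;KERA, DCN, ASPN, BGN, FMOD, VCAN, PRELP and OGN. The control ranges of 3 pairs of neighbours in that order overlapped, DCN with ASPN, BGN with FMOD and FMOD with VCAN, though DCN was above ASPN within each library. In reoxygenated cells the order was LUM;KERA, DCN, BGN, ASPN, FMOD, PRELP, VCAN and OGN, where the ranges of PRELP and VCAN overlapped around equal means of 12.8. In pretreated cells it was LUM;KERA, DCN, BGN, ASPN, FMOD, VCAN, PRELP and OGN. There no neighbours in the order overlapped. BGN stood behind ASPN in every control library and ahead of it in every other library.

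Ratios to BGN within each library do not depend on how libraries are scaled, and OGN was left out of them because 1 of its libraries was listed at 0. LUM;KERA was 11.7, 24.9 and 21.9 times BGN in the controls, 3.59 to 3.81 times in reoxygenated cells and 2.37 to 2.39 times in pretreated cells. ASPN to BGN was 2.41, 4.4 and 4.03 in control, 0.914 to 0.964 in reoxygenated cells and 0.452 to 0.559 in pretreated cells. Both ratios stepped down from control to reoxygenated cells and from reoxygenated cells to pretreated cells with no overlap. VCAN to BGN was 0.302, 0.833 and 0.91, then 0.176 to 0.182, then 0.0854 to 0.101, again with no overlap. DCN to BGN was 2.77, 11 and 10.9 in control, 2.56 to 2.76 in reoxygenated cells and 2.0 to 2.27 in pretreated cells, so control 1 was only just above reoxygenated cells. FMOD to BGN was 0.292, 1.14 and 1.18 in control and 0.363 to 0.46 in reoxygenated cells, which overlapped, and 0.23 to 0.264 in pretreated cells. PRELP to BGN was 0.139, 0.231 and 0.197 in control and 0.157 to 0.197 in reoxygenated cells, also overlapping, and 0.0508 to 0.072 in pretreated cells.

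In mean log2 ratio, LUM;KERA to BGN differed by -2.32 between reoxygenated cells and control and by -0.65 between pretreated and reoxygenated cells. PRELP to BGN differed by -0.04 and -1.64 in the same comparisons, and DCN to BGN by -1.37 and -0.32. Without control 1, DCN to BGN differed by -2.03 between reoxygenated cells and control. All 6 ratios were lower without overlap in pretreated cells than in reoxygenated cells and than in control, and 4 of 6 were in reoxygenated cells against control. Each of these 16 had an exact two-sided permutation p of 0.1, the smallest that 3 against 3 libraries allow, and none is below 0.1125 after Benjamini and Hochberg adjustment over the 18 ratios. FMOD and PRELP in reoxygenated cells against control had exact p of 0.4 and 0.9. All 6 ratios share BGN, so they are not independent of each other. BGN was itself called higher in both comparisons of pretreated cells (0.21 and 0.31 relative to the median locus). A locus that kept to the median would thus also fall against BGN there. The share of all loci with a lower ratio to BGN was not computed.

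**Figure D3:**
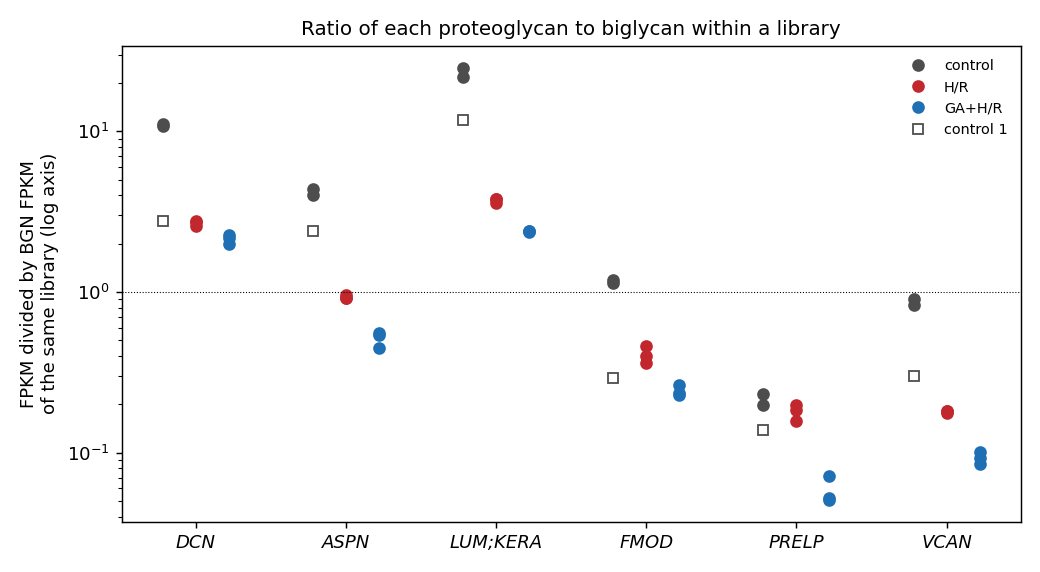
Ratio of 6 loci to BGN within each library, on a log axis, by group (control, H/R, GA+H/R). Each dot is 1 library and the open square is control library 1. Every GA+H/R ratio lies below every H/R ratio of the same locus, and PRELP overlaps between control and H/R (0.157 to 0.197 beside 0.139 to 0.231).

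Several of these genes lie side by side. In the RefSeq annotation of rabbit assembly mOryCun1.1, used for gene order only, EPYC, KERA, LUM and DCN follow each other on chromosome 11, ECM2, ASPN, OMD and OGN on chromosome 1, and FMOD, PRELP and OPTC on chromosome 13. VCAN is next to HAPLN1, which encodes a link protein that ties such proteoglycans to hyaluronan, on chromosome 14, and BGN is on X. The ratio of neighbouring genes was not the same in all groups. FMOD was 2.11, 4.91 and 5.99 times PRELP in control, 2.31, 2.16 and 2.33 times in reoxygenated cells and 4.39, 4.64 and 3.67 times in pretreated cells. That ratio was higher in every pretreated library than in every reoxygenated library (mean difference 0.89 in log2), and control 1 lay just below the reoxygenated range. LUM;KERA was 4.23, 2.26 and 2.01 times DCN in control, 1.32, 1.38 and 1.48 times in reoxygenated cells and 1.05, 1.2 and 1.09 times in pretreated cells, lower without overlap at each step. FMOD to PRELP overlapped between pretreated cells and control. Both pairs were chosen after their values were seen, so their exact permutation p-values, 0.1 at the least, are descriptive only. The HAPLN1 level was 11.4 ± 7.81 in control, 3.08 ± 0.547 in reoxygenated cells and 3.8 ± 2.96 in pretreated cells, with no call in any comparison in the fit to all 9 libraries (-1.29 at adjusted p = 0.131 for reoxygenated cells against control), and without control 1 the changes were -2.01 in reoxygenated cells and -1.99 in pretreated cells against control, both called (adjusted p = 0.0071 and 0.00589).

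Other small leucine-rich repeat proteins were read from a list of 11 symbols (8 found in the table, 6 tested). In reoxygenated cells against control 2 were called lower and 1 higher, in pretreated cells against reoxygenated cells 1 lower and 0 higher, and in pretreated cells against control 4 lower and 0 higher, with medians of -0.62, -0.56 and -1.01 beside 0.00, 0.00 and -0.05 for all loci. Without control 1, 2 of 5 were called lower in pretreated cells against reoxygenated cells. ECM2, a matrix protein whose gene neighbours ASPN, was at 59.3 ± 28 in control, 12.2 ± 2.99 in reoxygenated cells and 9.31 ± 2.89 in pretreated cells and changed by -2.07 at adjusted p = 0.00177 in reoxygenated cells against control. Podocan, PODN, a collagen-binding relative, changed by -0.70 (adjusted p = 0.0121) in that comparison, which was lost without control 2 or control 3 (highest adjusted p = 0.0512). OMD, or osteomodulin, had a control mean of 1.7 and fell in pretreated cells against control (-1.34 at adjusted p = 0.00584). CHAD, or chondroadherin, had a control mean of 1.53, was listed at 0 in all pretreated libraries and was called lower there than in control (adjusted p = 0.00345). NYX, or nyctalopin, rose in reoxygenated cells from 0.605 to 1.98 (0.89 at adjusted p = 0.012), but the call was lost on the deposited scale (adjusted p = 0.513) and with 0.1 or 0.01 added in place of 1.

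Among hyaluronan partners of VCAN, 4 of 10 listed symbols were tested, and 2, 1 and 3 were called lower in reoxygenated cells against control, pretreated cells against reoxygenated cells and pretreated cells against control, with 0 higher. Their medians were -1.09, -0.58 and -1.61. Without control 1, 4, 3 and 4 of the 4 were called lower. Aggrecan, ACAN, the cartilage hyalectan, was at 586 ± 28.9 in control, 296 ± 4.08 in reoxygenated cells and 153 ± 16.9 in pretreated cells, well above VCAN in every group mean. ACAN fell at both steps, with changes of -0.98 and -0.95 (adjusted p = 1.09e-05 and 6.06e-05). HAS2, the main hyaluronan synthase of mesenchymal cells, fell in reoxygenated cells (-1.19 at adjusted p = 0.00107) and differed by -0.21 at adjusted p = 0.454 between pretreated and reoxygenated cells. HAS3, another hyaluronan synthase, had a control mean of 3.71 and fell in pretreated cells against control (-1.81 at adjusted p = 0.00191).

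Of 20 chondroitin and dermatan sulfate enzymes tested, which build the sugar chains, 10 were called lower and 3 higher in reoxygenated cells against control, beside 28.4% and 29.2% of all loci. In pretreated cells against reoxygenated cells 6 were lower and 0 higher, beside 15.2% and 18.7%, and in pretreated cells against control 13 lower and 1 higher, beside 35.5% and 33.7%, with medians of -0.25, -0.27 and -0.66. The same shares of all loci stand beside the counts of every list in the fit to all 9 libraries. Without control 1, 9 were lower and 1 higher of 19 in pretreated cells against reoxygenated cells. XYLT1, a xylosyltransferase that starts the chain on the core protein, fell in reoxygenated cells (-1.48 at adjusted p = 7.57e-04), and CHSY1, a chain-extending chondroitin synthase, fell too (-1.07 at adjusted p = 0.00148). In pretreated cells against reoxygenated cells, the other xylosyltransferase XYLT2 fell (-0.93 at adjusted p = 0.00344), as did CHPF, a partner of the chondroitin synthases (-0.84 at adjusted p = 9.02e-04), and CHST14, the dermatan 4-O-sulfotransferase (-0.85 at adjusted p = 0.0011). CHST7, a chondroitin 6-O-sulfotransferase, rose in reoxygenated cells from 2.23 to 5.51 (1.01 at adjusted p = 0.00894), whereas its deposited change was -0.12.

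Of 4 keratan sulfate enzymes tested, 3, 2 and 3 were called lower in the 3 comparisons in the same order and 0 higher (medians -0.79, -0.44 and -1.24), and without control 1 they were 4, 3 and 4. They included B3GNT2, which adds N-acetylglucosamine (-0.98 at adjusted p = 0.00258 in reoxygenated cells against control), and B4GALT1, which adds galactose (-0.87 at adjusted p = 1.44e-05). Of 9 genes for sulfate and nucleotide sugar supply, 7 were lower and 0 higher in reoxygenated cells against control, 1 lower and 1 higher in pretreated cells against reoxygenated cells, and 6 lower and 1 higher in pretreated cells against control (medians -0.38, -0.04 and -0.53). Without control 1, 4 were lower and 1 higher in pretreated cells against reoxygenated cells. SLC26A2, a sulfate transporter whose loss causes chondrodysplasias in humans, was lower in reoxygenated cells (-1.16 at adjusted p = 7.88e-05), and so was IMPAD1, a Golgi phosphatase that clears a by-product of sulfation (-1.27 at adjusted p = 5.04e-06).

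Proteases and enhancers that act on these proteoglycans moved in both directions, with 8 lower and 2 higher of 13 tested in reoxygenated cells against control, 8 lower and 2 higher in pretreated cells against reoxygenated cells and 9 lower and 3 higher in pretreated cells against control (medians -0.49, -0.60 and -1.0). ADAMTS4, an aggrecanase that also cuts versican, was at 18.1 ± 6.48 in control, 121 ± 6.9 in reoxygenated cells and 28.3 ± 4.17 in pretreated cells. It rose in reoxygenated cells against control (2.73 at adjusted p = 1.37e-05) and fell in pretreated cells against reoxygenated cells (-2.06 at adjusted p = 2.83e-04), and both directions held on the deposited scale (1.31 and -2.66). MMP13, a collagenase that also cleaves fibromodulin, fell in reoxygenated cells (-2.68 at adjusted p = 1.34e-07) and rose in pretreated cells against reoxygenated cells (1.24 at adjusted p = 7.39e-05). MMP12, or macrophage elastase, rose in pretreated cells against reoxygenated cells (3.87 at adjusted p = 0.00121), and MMP2 fell (-1.13 at adjusted p = 0.00161).

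Of 15 receptors and ligands tested, 10 were lower and 2 higher in reoxygenated cells against control, 8 lower and 3 higher in pretreated cells against reoxygenated cells, and 11 lower and 2 higher in pretreated cells against control (medians -0.60, -0.52 and -1.09). LRP1, an endocytic receptor that takes up decorin, fell at both steps (-0.97 at adjusted p = 7.89e-05 and -0.93 at adjusted p = 3.72e-04), as did IGF1R, the insulin-like growth factor receptor (-0.98 at adjusted p = 1.12e-04 and -0.91 at adjusted p = 5.78e-04). TLR2 and TLR4, which bind soluble biglycan, did not pass the filter on low values. TGFBR1, the type I TGF-beta receptor, fell in reoxygenated cells against control (-1.12 at adjusted p = 5.13e-06). It was called higher in pretreated cells against reoxygenated cells (0.29), a call lost in 6 alternative runs. The largest rises of this list were 0.69, 0.51 and 1.20 in the 3 comparisons in the same order, all called. On the deposited scale 0 of the list were called higher in any comparison, beside only 460, 186 and 451 of 10996 loci.

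Most collagens and fibril partners were called lower, with 13 of 16 tested called lower in reoxygenated cells against control, 15 in pretreated cells against reoxygenated cells and 16 in pretreated cells against control, and 0 higher in each (medians -1.19, -1.03 and -2.07). Without control 1, 14 were lower and 1 higher in reoxygenated cells against control. COL1A2, a chain of collagen I, was at 61185 ± 18170.5 in control, 19747 ± 29.1 in reoxygenated and 9853 ± 129 in pretreated cells and changed by -1.58 at adjusted p = 1.25e-04 and -1.0 at adjusted p = 0.00417 at the 2 steps. COL12A1, a collagen on fibril surfaces, changed by -1.40 at adjusted p = 3.51e-07 and -1.40 at adjusted p = 4.25e-06. COL1A1 was lower at both steps (-0.86 and then -1.50, adjusted p = 4.28e-04 and 6.58e-05). Among the proteoglycans LUM;KERA changed by -2.21 and -0.43, and the difference between the steps was not tested.

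**Figure D4:**
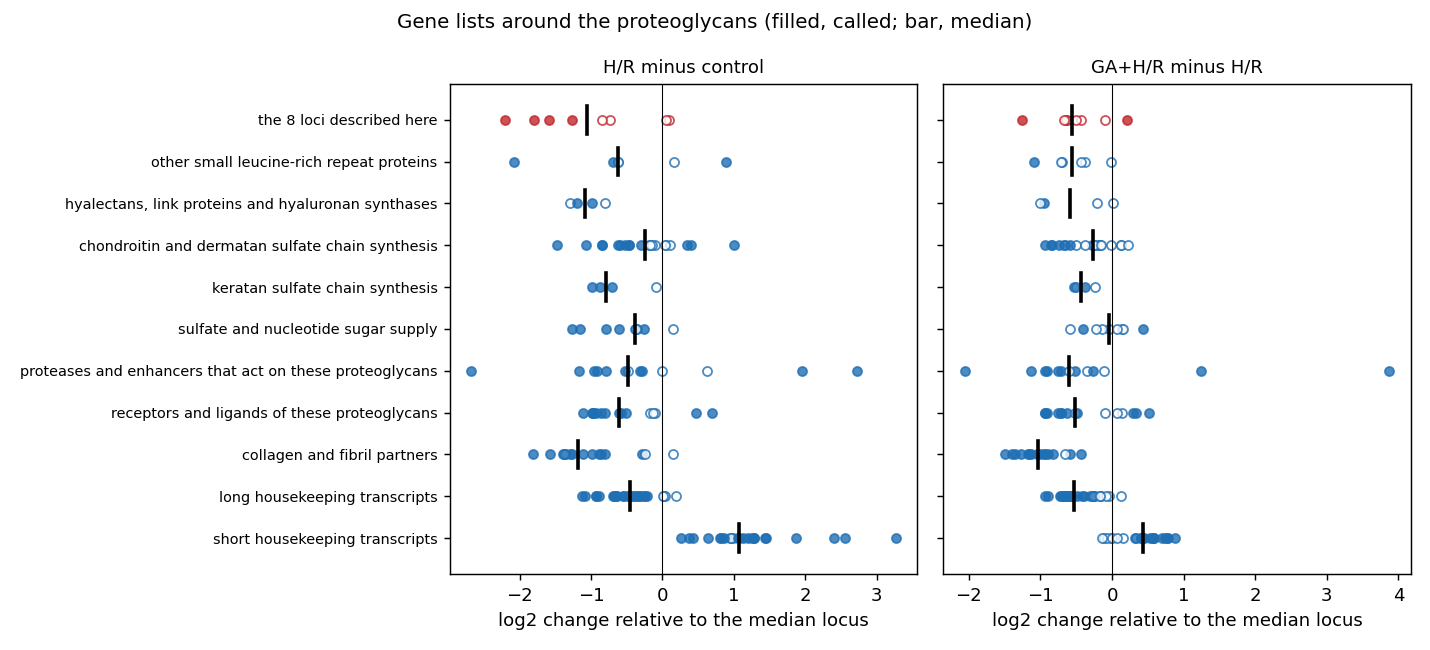
Log2 changes relative to the median locus of the tested genes of each list, with H/R minus control on the left and GA+H/R minus H/R on the right; dots are genes (red for the 8 proteoglycan loci), filled where called, and short bars are list medians. Collagen partners (medians -1.19 and -1.03) and long housekeeping transcripts lie mostly to the left of 0, and short housekeeping transcripts mostly to the right.

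Lists of cell type markers and of long and short housekeeping transcripts moved in different directions. Fibroblast markers, 8 tested of which 3 are collagens also counted above, were lower for 6 and higher for 1 in reoxygenated cells against control, 4 and 1 in pretreated cells against reoxygenated cells, and 6 and 2 in pretreated cells against control (medians -0.76, -0.74 and -1.35). Without control 1, 5 were lower and 3 higher in pretreated cells against reoxygenated cells. PDGFRB, a receptor of fibroblasts and pericytes, fell at both steps (-0.52 at adjusted p = 0.0044 and -0.78 at adjusted p = 0.00123), whereas VIM rose (0.89 at adjusted p = 1.03e-05 and 0.30 at adjusted p = 0.0117) relative to the median locus and was lower as deposited (-0.57 and -0.37). Macrophage markers, 8 tested, were called higher for 3, 7 and 8 and lower for 0 in the 3 comparisons in that order (medians 0.48, 1.52 and 2.20), and the summed level of the 11 with a row of their own was 5.1 to 43.5 in control, 30.9 to 35.5 in reoxygenated and 346 to 362 in pretreated cells, with control 1 at the lowest value. Without control 1, 4 were called higher and 1 lower in reoxygenated cells against control. On the deposited scale 6 of the macrophage markers were tested, with medians of -0.55, 1.53 and 1.62. There 0, 4 and 4 were called higher, and 1 was called lower in each comparison. Of all 10996 loci tested on that scale, 460, 186 and 451 were called higher and 86%, 64.3% and 90.1% lower. CD68 is listed only as a locus joined with EIF4A1 and MPDU1. That joined locus is among the 8 tested and was called higher in each comparison (0.57, 0.49 and 1.05), but was lower as deposited (-0.89, -0.18 and -1.07). The CD163 call in reoxygenated cells against control was lost in 7 alternative runs. The MSR1 call in pretreated cells against control was lost in 14 alternative runs. CD74 and AIF1 had means of at most 0.0569 and 0.52. Long housekeeping transcripts, 28 tested, were lower for 24, 19 and 27 and higher for 0 (medians -0.46, -0.52 and -0.92), and short ones, 23 tested, were higher for 22, 15 and 22 and lower for 0 (medians 1.08, 0.44 and 1.39), whereas the short list's deposited medians were -0.16, -0.22 and -0.36. The part of cell types and of transcript length in the members' changes was not tested.

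Among themselves, over the 9 libraries and as a description only, ASPN and LUM;KERA had the closest course (Pearson r = 0.99 of log2 levels), followed by VCAN with LUM;KERA (0.97) and VCAN with ASPN (0.97), while BGN was negatively correlated with every other member, from -0.90 with VCAN to -0.64 with OGN. All these values share libraries and the 3-group structure. Of 5821 named loci with a mean of at least 10 FPKM, those most like LUM;KERA were ITGAV, an integrin subunit (r = 0.998), and JAK1, a cytokine receptor kinase (0.998). INHBA, an activin subunit (0.997), and CPD (0.996) were most like ASPN, and SRGAP1 (0.998) and PDIA3 (0.998) most like VCAN. The nearest to DCN were NAV1 (0.993) and MYH10 (0.991), to FMOD ACSL5 (0.993) and ADAMTSL1 (0.98), and to BGN IPO5 (0.991) and DNAJA2 (0.987). PRELP was most like CHPF, the chondroitin synthase partner named above (0.975), and SLC2A10, a glucose transporter (0.974), and OGN was most like SLC7A6 (0.969).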

How the data were processed

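RNA sequencing of 9 libraries of rabbit parathyroid cells was used, 3 for each of 3 groups assigned from the labels. Per the file headers, the deposited values are FPKM by the authors for 19511 loci, beside the authors' p-value and deposited q-value from their own test across the 3 groups. The aligner, the quantification tool and the scaling between libraries are not given in the sources used here. In the submitters' processing notes are only mouse builds, whereas transcript names are those of rabbit, so no coordinates and no sequences are printed. No counts are given, so depth is unknown.

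Libraries were rescaled by their median ratio to the average library, taken over loci with FPKM of 1 or more in all 9. Testing was limited to loci that reached 1 in 3 or more libraries. log2(value + 1) was modelled in limma 3.58.1 (R 4.3.3) with group means and a robust eBayes trend, using all 9 libraries. P-values are two-sided with Benjamini-Hochberg adjustment across loci, and calls are at 0.05. Fold changes understate those of low loci. The fit was also run on simulated data in which few loci were shifted. That setting does not test the scaling where many loci change. Ratios within a library were compared by exact permutation tests. Besides the 8 members, up to 4 genes called per list and comparison with the largest change were named, from 16 lists with 261 symbols, and for each member the 2 most correlated named loci, of which 1 for OGN is not reported here. The members and lists were chosen with earlier results of these data known. Gene order came from RefSeq, in which all 8 members were matched. Alternatives were another scale, pseudocount or filter, only the groups compared, a replicate block, and each library left out.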

Additional observations from a re-analysis of the deposited data

How the results depend on the processing

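On the deposited scale 9922 loci (4.64% of calls higher, against 50.7%) were called in reoxygenated cells against control, 7255 (2.56%, against 55.2%) in pretreated cells against reoxygenated cells and 10357 (4.35%, against 48.7%) in pretreated cells against control, and members called numbered 8, 7 and 8. With equal totals the shares of higher calls were 32%, 42.1% and 32.8%, and the median locus shifted by -0.24, -0.07 and -0.37. BGN turned to -1.34, -0.44 and -1.78 on the deposited scale in the same order and to -0.058 with equal totals in pretreated cells against control, and PRELP to -1.31 in reoxygenated cells against control on the deposited scale. In that last comparison, with no call, BGN was also at -0.19 with equal totals. PRELP was at -0.22 there and at -0.09 with quantile normalization, also with no call. With only the groups compared, 6 members and 4080 loci were called in pretreated cells against reoxygenated cells. Leaving out each library gave 1 to 6 members and 2709 to 4556 loci called in pretreated cells against reoxygenated cells, 5 to 8 and 6803 to 7431 in pretreated cells against control and 3 to 6 and 5424 to 6396 in reoxygenated cells against control. Against the mean of the members in place of BGN, ratios turned to 0.42 for DCN and 0.090 for LUM;KERA in pretreated cells against reoxygenated cells, and to 0.22 for DCN, 0.32 for FMOD and 0.23 for PRELP in pretreated cells against control. In reoxygenated cells against control they were 0.33 for FMOD and 1.13 for PRELP. There DCN was at -0.19, LUM;KERA at -1.14, ASPN at -0.73 and VCAN at -0.58. The mean of the members includes BGN and the member itself and leaves out OGN. These log2 ratios therefore balance out within each library by construction. Some must rise where others fall, so their signs are no separate result about a member. DCN in reoxygenated cells against control was not called without a filter or with only the groups compared (adjusted p = 0.0616 and 0.0537), nor was FMOD in pretreated cells against control (0.0537 and 0.0521). Replicate numbers did not pair the libraries (deviations of the 9 same-number pairs correlated at -0.018 to 0.026), and with a replicate block 6142, 3385 and 7441 loci and 4, 2 and 8 members were called, and BGN in pretreated cells against reoxygenated cells lost its call (adjusted p = 0.0545). The 3 libraries per group and the unknown depth limit what can be detected.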

Other observations

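Other proteoglycans, 16 tested of 20 listed symbols, were lower for 9 and higher for 0 in reoxygenated cells against control, lower for 9 and higher for 1 in pretreated cells against reoxygenated cells, and lower for 12 and higher for 1 in pretreated cells against control, with medians of -0.47, -0.57 and -1.07. HSPG2, or perlecan, the heparan sulfate proteoglycan of basement membranes that prolargin binds, was at 2460.2 ± 595 in control, 1374 ± 28 in reoxygenated cells and 544 ± 9.81 in pretreated cells (SD, n = 3) and changed by -0.81 at adjusted p = 0.00168 and -1.34 at adjusted p = 3.23e-04 in limma's test at the 2 steps. SDC1, or syndecan 1, was at 61.2 in control and 60.4 in reoxygenated cells, and it fell in pretreated cells against reoxygenated cells (-1.0 at adjusted p = 9.60e-05), as PRELP did. GPC4, a cell-surface glypican, fell at both steps (-1.26 at adjusted p = 4.48e-05 and -0.78 at adjusted p = 0.00207). SRGN, or serglycin, the granule proteoglycan of blood cells including macrophages, was at 1.11 ± 0.50 in control, 1.45 ± 0.213 in reoxygenated cells and 13.6 ± 0.43 in pretreated cells and rose in pretreated cells against reoxygenated cells (2.58 at adjusted p = 1.90e-05), also as deposited (1.77).

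Of 8 endothelial symbols 2 were tested. PECAM1, a junction protein of endothelium that leukocytes also carry, rose from 0.217 in control and 0.795 in reoxygenated cells to 2.98 in pretreated cells (1.14 at adjusted p = 3.14e-04 against reoxygenated cells). The other tested symbol changed by -1.01 in reoxygenated and -0.96 in pretreated cells against control, with no call. Without control 1, 1 was called higher and 1 lower in both comparisons with control. VWF and TIE1 were near 0. Of 5 smooth muscle and pericyte markers tested, 1 was higher and 0 lower in reoxygenated cells against control, 0 higher and 3 lower in pretreated cells against reoxygenated cells, and 1 higher and 2 lower in pretreated cells against control, and without control 1 these were 2 and 0, 0 and 4, and 1 and 3. TAGLN, an actin-binding protein of contractile cells, was higher in reoxygenated cells (1.32 at adjusted p = 1.13e-04), though lower as deposited (-0.14). Of 15 parathyroid symbols 3 were tested, with 1 lower in reoxygenated cells against control and 1 higher and 1 lower in each comparison of pretreated cells. FGFR1, a fibroblast growth factor receptor, was the lower one in pretreated cells against control (-0.90 at adjusted p = 7.53e-06).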
